A study of Cicer arietinum with 8 samples.

Results

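The results below follow 62 chickpea probes that were lower in salt-treated than in control shoots 48 h after salt was given. Each was followed across drought, cold and salt. The members were 43 of the 442 probes whose codes start with U and 19 of the 117 whose codes start with CA, together 62 of 559 such probes and of 756 probes on the array. The rule took the log2 ratio of treated over control signal after subtraction of local background, centred on the array's median over U and CA probes. A member had values on at least 2 salt shoot arrays of 48 h, all of them below 0, and a mean at least 1.5-fold below the array median. The members were thus chosen by the 48 h salt shoot values, which are given as a description, with no test.

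The plants were chickpea (Cicer arietinum) of genotype ICC 3996, with 5 plants per group and RNA from pooled tissue. On each 2-colour cDNA array, stressed and unstressed RNA were hybridised together, with 3 arrays for each of 8 comparisons and the dyes swapped on array 3. Salt-treated plants received 150 mM NaCl in hydroponics at an age of 18 days, and their shoots and roots were compared with untreated ones after 24 h and 48 h. Drought-stressed pots held 30% water content against 80% in control pots, and cold-stressed plants had nights at 5 °C until harvest after the seventh night, against unstressed plants; leaves were sampled in both, and also flowers with early pods, called flowers here. In whole tissue, fewer cells of a type and less RNA per cell cannot be told apart.

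Salt around the roots first limits water uptake and later lets sodium and chloride build up in leaves. Leaf growth and photosynthesis usually slow, and transcripts of both processes are among those often lowered in salt-treated shoots. Chickpea is a salt-sensitive legume. The files give probes only as codes, so no gene product, role, tissue marker or sequence can be attached to a member here, and the members are described by level, tissue and stress.

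Unflagged spots numbered 602 to 2879 per channel of 4704, and 162 to 581 probes per channel stood above background. The lowest values of both belonged to untreated roots on array 1 of the 48 h salt comparison. For roots at 24 h, the 3 salt arrays were copies of 1 scan (identical pixel SD in 99.74% to 100% of spots) that carry opposite dye labels, so they were used as a single sample and the dye of its treated RNA is not known. Salt arrays were quantified on other days than drought and cold arrays, so day and salt against the other stresses cannot be told apart. The number of arrays limits precision throughout.

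At 48 h the median member was 1.80-fold lower in salt-treated shoots, at a mean log2 ratio of -0.85 on the subtracted, median-centred scale. Only 9 members had a mean of -1 or less. Over all measured U and CA probes, 124 of 370 (33.5%) were below 0 on every array with a value, and 62 of these missed the size threshold. The spread was wide, with a median SD of 0.327 between the arrays of a member. Of the 43 members with 3 arrays, 23 were lowest on array 1, 3 on array 2 and 17 on array 3.

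The probe with the lowest mean was CA0705, at -0.79, -0.77 and -2.41 on arrays 1 to 3. Its background-subtracted signals were 22440, 20884 and 2459 in salt-treated shoots, against 34802, 32109 and 16757 in control shoots. The drop on arrays 1 and 2 was thus small beside that on the dye-swapped array 3. U472 gave -1.73, -0.97 and -0.87, with signals of 10806, 11856 and 3058 in salt-treated shoots against 32262, 20960 and 7179 in control shoots. Here array 1 was the lowest. U087 also had its lowest value on array 1, at -1.82, -0.87 and -0.70, as did U437 at -1.37, -0.91 and -0.82.

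CA0711 was measured on arrays 1 and 2 only, at -1.39 and -1.25, and U459 likewise at -1.27 and -1.07. CA0711 was dim, with 889 and 1132 in salt-treated shoots against 2088 and 2401 in control shoots. U031 and U253 had values on arrays 1 and 3, at -0.62 and -1.62 for U031 and -0.69 and -1.30 for U253.

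A group of 7 members (CA0705, CA0853, CA0856, U039, U126, U157 and U473, singled out after their values were seen) lay more than 1 log2 unit lower on array 3 than on either other array. U126 was the most uneven, at -0.17, -0.40 and -2.43, and U157 gave -0.89, -0.14 and -2.22. For U126 the signals were 44171, 29838 and 2355 in salt-treated shoots, against 44554, 35510 and 16305 in control shoots. The mean control signal of these 7 on arrays 1 and 2 ran from 5545 to 46390, while the other 36 members with 3 arrays ran from 2213 to 49702. In control shoots, saturated spots, whose median pixel sat at the top of the 16-bit scale, made up all 6 spots of U039 on array 1 and 4 of 6 on array 2, and 2 of 6 spots of U126 on array 1. The ratios of U039 on arrays 1 and 2 are therefore bounds only, as is that of U437 on array 1, where all 6 control spots were saturated. Over all members, 5 had 3 or more saturated spots on at least 1 control array at 48 h (CA0203, CA0719, U016, U039 and U437), and 0 on a treated array. A part of saturation or of the dye swap in the unevenness was not tested.

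The members nearest to the threshold were CA0871 (-0.60), U350 (-0.59) and U378 (-0.59) in mean log2 ratio. Just outside it, with all arrays below 0, were U042 and CA0712 (-0.58 each) and U082 (-0.58). A further 2 probes, U356 at -0.73 and CA0694 at -0.59, met the mean but were above 0 on an array.

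**Figure D1:**
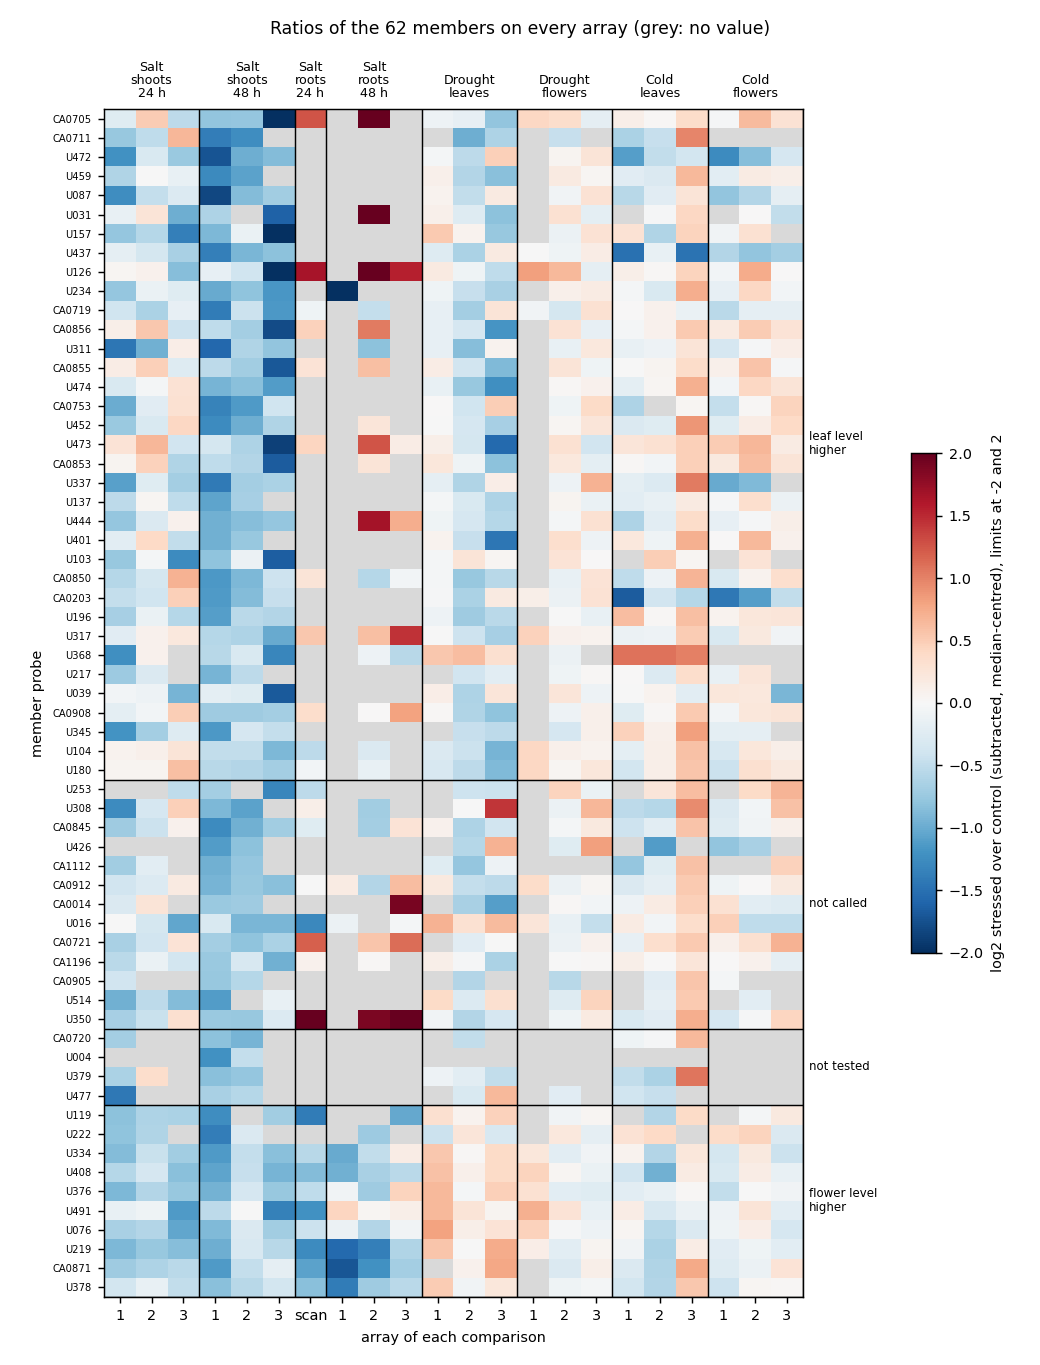
Log2 ratio of stressed over control on the subtracted, median-centred scale for the 62 members (rows) on every array (columns), blue for lower and red for higher in stressed tissue, with colours held at -2 and 2 and grey for no value. Rows are split by whether the unstressed level was higher in leaves (35), not called (13), not tested (4) or higher in flowers (10); the salt shoots 48 h block is blue by choice of the members, while salt roots are mostly grey and hold the strongest reds.

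Salt shoots at 24 h, on arrays that took no part in choosing the members, had many of the same probes on the low side. On the subtracted, median-centred scale 27 of the 56 members with values on 2 or more arrays (48.2%) were below 0 on every array, against 21.1% of all U and CA probes and 16.3% of the 289 other probes measured at both times. Only 2 of 56 (3.57%) were above 0 on every array, against 21.4% of all. The median member ratio was -0.65, -0.26 and -0.42 on arrays 1 to 3, lowest on array 1. Array 1 was also the only array of its quantification day.

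In the limma fit of loess-normalised log2 ratios over the 18 other arrays, 10 of 56 tested members were lower in salt-treated shoots at 24 h at an adjusted p of 0.05, or 17.9%. Over all 394 probes tested, 4.06% were lower and 3.81% higher. No member was called higher. At an unadjusted p under 0.05 the shares were 39.3% of members and 25.9% of all probes. The median fitted ratio was -0.29 over the members and 0.03 over all tested probes, and 45 members (80.4%) were below 0 against 47.7% of all. The share called rests on arrays 1 and 3: with either left out the fit called 0 of all probes. Quantification day as a block gave the same. As array 1 was alone on its day, this block takes up array 1 and is no separate check.

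U076 had the smallest adjusted p. Its signals were 13832, 8904 and 2676 in salt-treated shoots, against 21926, 11796 and 7094 in control shoots. The loess log2 ratios were -0.72, -0.63 and -0.87, and the fit gave -0.74 ± 0.14 (SE; 1.67-fold lower; limma, adjusted p = 0.0103). All 3 arrays were below 0 and lay close together. At 48 h the same probe had 13324, 14259 and 4386 in salt-treated shoots, against 22124, 15555 and 9105 in control shoots.

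U219 was as even, with signals of 5235, 3861 and 1386 in salt-treated shoots against 9820, 5805 and 3230 in control shoots at 24 h. Its loess log2 ratios were -0.84, -0.72 and -0.69, and the fit gave -0.71 ± 0.14 (SE; limma, adjusted p = 0.0133). U222 had values on arrays 1 and 2 only, at -0.74 and -0.55. Its fitted ratio, which includes the dye term, was -0.88 ± 0.20 (SE; limma, adjusted p = 0.0325). U157, one of the uneven members at 48 h, gave -0.74, -0.64 and -1.15 at 24 h and a fitted -0.86 ± 0.20 (SE; limma, adjusted p = 0.0325). It was again lowest on array 3, but all arrays were below -0.6.

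The other 6 called members had fitted log2 ratios between -0.73 (U472) and -0.55 (U491). U119 (-0.76, -0.54 and -0.51) and U334 (-0.85, -0.52 and -0.55) were similar across arrays. U472 (-1.40, -0.46 and -0.59), U376 (-1.02, -0.76 and -0.47) and U345 (-1.09, -0.59 and -0.20) were lowest on array 1. U491 (-0.30, -0.28 and -0.94) was lowest on array 3. The highest fitted member was U379, at 0.30, with arrays 1 and 2 at -0.11 and 0.40 and no call.

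**Figure D2:**
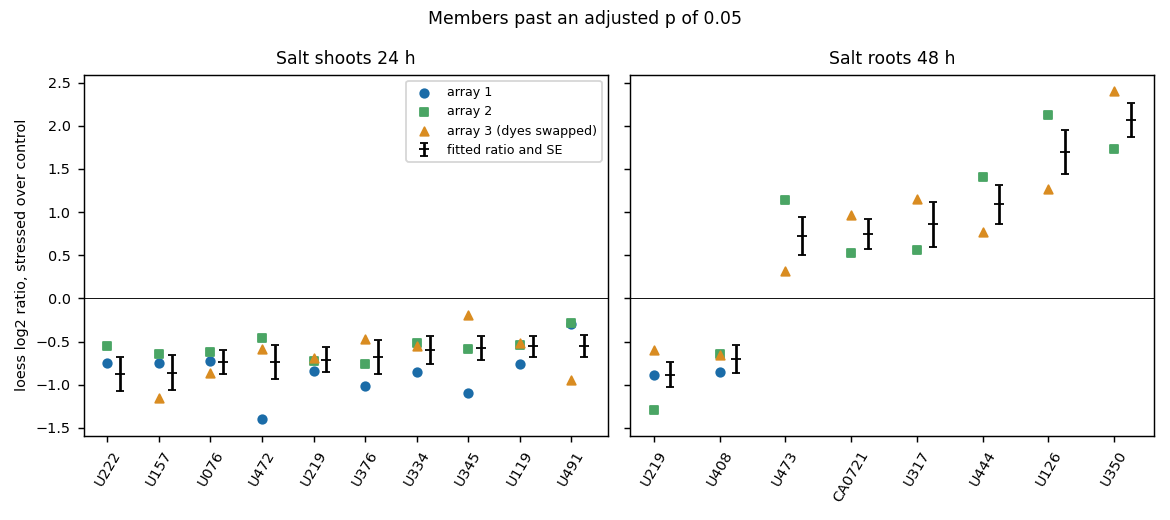
Loess log2 ratio of stressed over control on each array (points, shaped by array) with the limma fitted ratio and its SE (black) for members past an adjusted p of 0.05, in salt shoots at 24 h (left, 10 members, all lower) and salt roots at 48 h (right, 2 lower and 6 higher). The 6 higher root members have points for arrays 2 and 3 only.

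Most members were dim in unstressed roots. In unstressed roots at 48 h only 17 of 62 members (27.4%) were above background on 2 or more arrays, against 200 of 308 other U and CA probes measured in the 48 h shoots (64.9%). In salt-treated roots at 48 h the counts were 44 members (71.0%) against 275 others (89.3%). The 24 h scan gave 28 members (45.2%) against 242 others (78.6%) in unstressed roots, and 36 members (58.1%) against 258 others (83.8%) in salt-treated roots. In unstressed shoots at 24 h both sets stood at 96.8%.

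**Figure D3:**
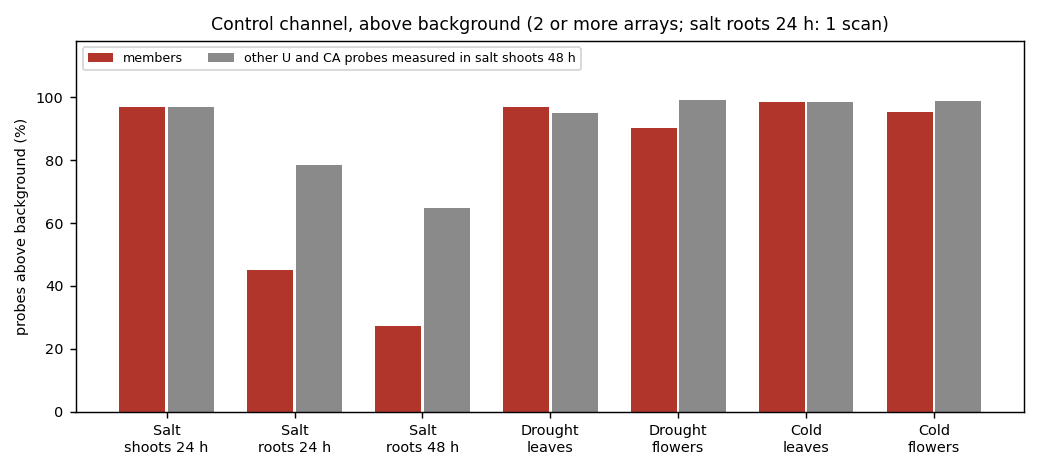
Share of probes whose control channel stood above background (on 2 or more arrays; 1 scan for salt roots at 24 h), for the 62 members (red) and the 308 other U and CA probes measured in salt shoots at 48 h (grey). Members fall to 45.2% and 27.4% in unstressed roots, against 78.6% and 64.9% of the others, and stay at 90.3% or more elsewhere.

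Only 20 of 62 members (32.3%) had values on 2 or more arrays of salt roots at 48 h, against 204 of 308 others (66.2%), so counts here concern a selected minority of the members, those bright in roots. On the subtracted, median-centred scale 8 of 20 were below 0 on every array (40.0%, against 36.8% of all U and CA probes) and 8 were above 0 (40.0%, against 37.7%). In the limma fit 6 members were higher and 2 lower in salt-treated roots, or 30.0% and 10.0%, against 23.8% and 16.8% of the 244 probes tested. The members tested were thus called at about the rates of all probes.

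U350, which lay just inside the threshold in shoots, was the most raised in roots. Its signals on arrays 2 and 3 were 10544 and 14418 in salt-treated roots against 1853 and 1065 in control roots. The loess log2 ratios were 1.73 and 2.40, and the fitted ratio was 2.07 ± 0.19 (SE; 4.20-fold higher; limma, adjusted p = 9.9e-06). In the single scan of salt roots at 24 h its subtracted, median-centred log2 ratio was 2.50, the highest of the 28 members with a value.

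U126 had 20202 and 6687 in salt-treated roots against 2747 and 1137 in control roots on arrays 2 and 3. Its loess log2 ratios were 2.13 and 1.26, with a fitted 1.70 ± 0.26 (SE; limma, adjusted p = 0.000278). The 24 h scan gave 1.65 on the subtracted, median-centred scale. So 2 members chosen for lower ratios in salt-treated shoots had more than 3-fold higher fitted levels in salt-treated roots. Neither was among the members called lower in shoots at 24 h. U126 there had 43417, 47564 and 5599 in salt-treated shoots against 42669, 39513 and 13030 in control shoots, with saturated spots on arrays 1 and 2. U350 had 3844, 3626 and 1705 against 6157, 4341 and 1760. The difference between shoot and root ratios was not tested at 48 h, because the 48 h shoot arrays chose the members. It was not tested for the 24 h shoots either.

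The other 4 raised members were U444 (fitted log2 ratio 1.09), U317 (0.86), CA0721 (0.75) and U473 (0.73), with adjusted p from 0.00266 to 0.021 in limma. All 6 raised members had no value on array 1, whose control channel was the dimmest, so each rests on a pair of arrays. U444 and U473 also had control signals above background on only 1 array, at 716 and 657 on array 2 and 936 and 1064 on array 3. Leaving out array 2 or array 3 leaves each with a single array, so these 6 rises have no leave-one-out check.

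U219 was lower in salt-treated roots as in shoots at 24 h. Its loess log2 ratios were -0.89, -1.30 and -0.60 and the fit gave -0.88 ± 0.14 (SE; limma, adjusted p = 0.000332). The subtracted signals were 4186, 3181 and 2554 in salt-treated roots against 1384, 5287 and 1921 in control roots. The direction on arrays 1 and 3 therefore comes from the normalisation, which sets each probe against the array's other spots. U408 gave -0.86, -0.65 and -0.65, from subtracted signals of 6567, 5873 and 3220 in salt-treated roots against 1443, 5946 and 2354 in control roots, so its direction rests on the normalisation likewise. It had a fitted -0.70 ± 0.16 (SE; limma, adjusted p = 0.00344). For CA0871 the scale decided the sign on array 1, at -1.71 subtracted and median-centred and 0.32 after loess.

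In the scan of salt roots at 24 h, 16 of 28 members with a value (57.1%) were below 0 on the subtracted, median-centred scale, against 50.0% of all U and CA probes. The lowest were U119 at -1.40, U016 at -1.28, U219 at -1.26 and U491 at -1.21. The highest after U350 and U126 were CA0705 at 1.25 and CA0721 at 1.19. This single sample allows no test.

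Drought-stressed leaves showed lower values for part of the members, without any call. On the subtracted, median-centred scale 21 of 59 members (35.6%) were below 0 on every array, against 18.3% of all U and CA probes. The array medians were 0.03, -0.39 and -0.34, so array 1 stood apart from the other arrays. In the limma fit the median was -0.17 over members and -0.01 over all 441 probes, and 39 of 59 members (66.1%) were below 0 against 52.2%. None of 59 members and 0% of all probes passed the adjusted p of 0.05 in either direction. At an unadjusted p under 0.05 there were 13 lower and 4 higher members of 59 (28.8%), against 73 of 441 probes in either direction (16.6%), and the smallest adjusted p of a member was 0.156. The lowest was CA0014, at -0.57 and -1.07 on arrays 2 and 3, and the highest was U308, at -0.08 and 1.37.

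In drought-stressed flowers, 2 of 54 members (3.70%) were below 0 on every array, against 19.1% of all U and CA probes. No member and 0% of the 434 probes were called, with 0 members against 45 probes (10.4%) at an unadjusted p under 0.05 and a smallest adjusted p of a member of 0.5 in limma. The fitted log2 ratios lay between -0.21 (U345) and 0.60 (CA0203).

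In cold-stressed leaves 4 of 60 members (6.67%) were below 0 on every array of the subtracted, median-centred scale, against 19.4%. Array medians were -0.18, -0.15 and 0.50, so the dye-swapped array 3 differed in sign from arrays 1 and 2. In the limma fit 16 of 60 members (26.7%) were below 0 against 48.5% of all probes. A single member (1 of 60, 1.67%) was called lower, against 1.17% of the 429 probes lower and 2.1% higher. It was U437, with signals of 2191, 46128 and 8032 in cold-stressed leaves against 5802, 52281 and 19460 in control leaves. Its loess log2 ratios were -1.44, -0.15 and -1.33, and the fit gave -0.99 ± 0.21 (SE; limma, adjusted p = 0.0344). On array 2 all 6 control spots and 3 treated spots were saturated, so the ratio there is not measured. The call was lost with at least 3 spots per probe, without array 1, without array 3 and by the methods' t-test, with adjusted p up to 0.578.

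U368 was the highest member in cold-stressed leaves. Its signals were 12114, 28143 and 4557 in cold-stressed leaves, against 5530, 13785 and 1974 in control leaves. The loess log2 ratios of 0.94, 1.11 and 0.86 were all above 0, and the fit gave 0.97 ± 0.21 (SE; limma, adjusted p = 0.0558), which missed the threshold.

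Cold-stressed flowers had 10 of 52 members (19.2%) below 0 on every array, against 20.2% of all U and CA probes. None of 52 members and 0% of the 433 probes were called in limma, with 3 lower and 2 higher members (9.62%) against 52 probes (12.0%) at an unadjusted p under 0.05 and a smallest adjusted p of 0.206. The lowest fitted ratio was -0.81 (CA0203), on arrays at -1.22, -1.11 and -0.38, and the highest was 0.50 (U253).

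The contrast of drought-stressed with cold-stressed leaves, tested as the difference of their log2 ratios, called 0 of 58 members, against 0.993% of the 403 probes in each direction. By this difference 40 of 58 members (69.0%) were below 0, lower under drought, against 46.2% of all probes, and 13 members were lower and 5 higher at an unadjusted p under 0.05 (31.0%), against 83 probes in either direction (20.6%). The smallest adjusted p was 0.0561, at differences of -1.01 for CA0014 and U473 and -0.97 for U345. Within drought, leaves against flowers called 0 of 54 members and 0% of 389 probes, with 7 of 54 members, all lower in leaves, against 29 probes (7.46%) at an unadjusted p under 0.05 and a smallest adjusted p of 0.618. Within cold, leaves against flowers called 0 of 51 members and 0% of 386 probes, with 0 members against 19 probes (4.92%) at an unadjusted p under 0.05 and a smallest adjusted p of 0.995. Of the 18 members measured in all 7 other conditions, 0 had a mean below 0 in all of them. Other probes were not counted in this way, so the count does not set the members apart.

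**Figure D4:**
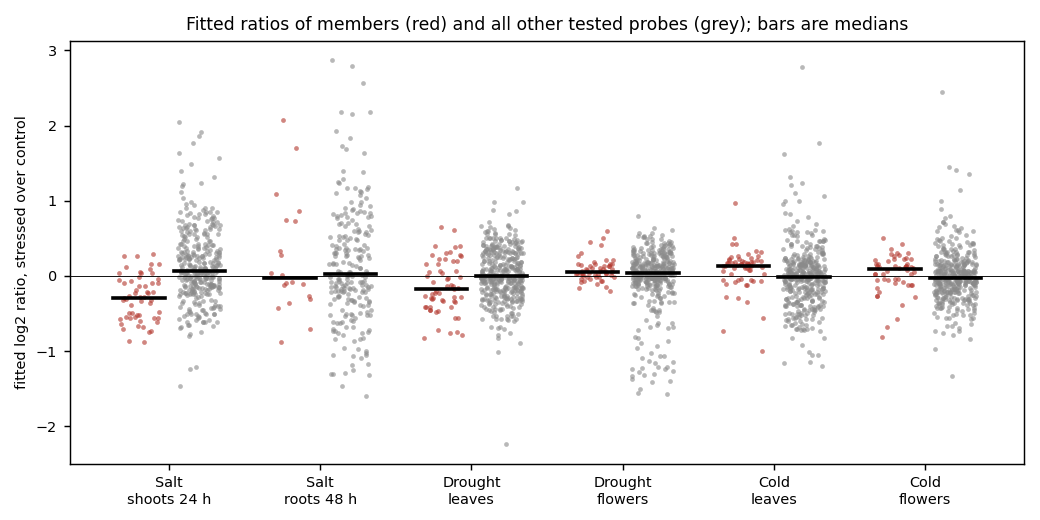
Fitted log2 ratio of stressed over control for each member (red) and every other tested probe (grey) in the 6 conditions of the fit, with bars at the medians. The members' bar lies at -0.29 in salt shoots at 24 h and -0.17 in drought leaves, and at 0.14 in cold leaves.

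The level in unstressed plants was not used by the rule. In control channels of the drought and cold arrays, 35 of 58 tested members (60.3%) were higher in unstressed leaves than in unstressed flowers, and 10 (17.2%) were lower. Over all 469 probes tested 19.6% were higher in leaves and 20.7% lower. Of the 305 other probes measured in the 48 h shoots, 14.8% were higher in leaves and 26.6% lower. The median log2 difference was 0.78 over members and -0.03 over all probes. For 19 of the 35 leaf-high members and 4 of the 10 flower-high ones, the leaf and flower arrays did not overlap. The same was not counted for other called probes, so it cannot be read as particular to the members. The part of the members' choice in shoots, which are mostly leaf and stem, in this difference was not tested.

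CA0753 had the largest fitted excess in leaves, with no value from cold leaves array 2, where all 6 of its control spots were saturated. Its log2 level had a lowest, median and highest value of 13.69, 14.56 and 15.01 over 5 leaf arrays, against 11.39, 11.93 and 12.76 over 5 flower arrays. The groups did not overlap, and the difference was 2.62 ± 0.29 (SE; limma, adjusted p = 0.000285). U196 stood at 13.71, 14.62 and 14.96 in leaves (6 arrays) against 12.14, 12.56 and 12.61 in flowers (5 arrays), a log2 difference of 2.05 ± 0.24 (SE; limma, adjusted p = 0.000276). Control spots of U196 were saturated on array 2 of cold leaves (all 6) and array 3 of drought leaves (2), so its level on the former is a bound only. U368 was 2.48 ± 0.38 higher in leaves (SE; limma, adjusted p = 0.00275), with 6 leaf arrays but only 2 flower arrays. U337 followed at 1.93. U039 was fitted at 1.86, but 5 of its 6 leaf arrays were saturated, so its excess in leaves is not measured and has no rank.

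CA0871 had the largest excess in flowers. Its levels were 10.17, 10.46 and 11.06 over 5 leaf arrays, against 12.11, 12.16 and 12.37 over 5 flower arrays. The log2 difference was -1.68 ± 0.19 (SE; limma, adjusted p = 0.000285), again without overlap. U334 was next at -1.35. U219 stood at 11.05, 11.89 and 12.51 in leaves against 12.76, 13.10 and 13.29 in flowers, 6 arrays each, a difference of -1.28 ± 0.19 (SE; limma, adjusted p = 0.000517). U076 (-1.19, with 2 saturated spots on 1 leaf array) and U376 (-1.12, with 1 saturated leaf array) came after it.

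**Figure D5:**
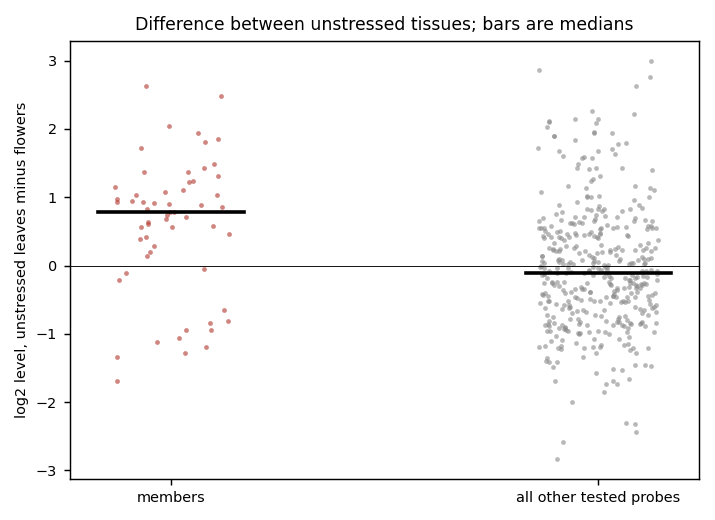
Difference in log2 control-channel level, unstressed leaves minus unstressed flowers, for the 58 tested members (red) and all other tested probes (grey), with bars at the medians. The members' bar is at 0.78, and a separate set of members lies near -1, among them the 10 called higher in flowers (CA0871, U076, U119, U219, U222, U334, U376, U378, U408 and U491).

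The salt values of these classes of members come from other arrays than their leaf and flower levels. All 10 flower-high members were below 0 in salt shoots at 24 h by the fit, with a median log2 ratio of -0.58, and 7 of them were called lower. Of the 81 other flower-high probes measured in the 48 h shoots, 54.3% were below 0, 5 (6.17%) were called lower and the median was -0.04. Among the 35 leaf-high members 26 (74.3%) were below 0, with a median of -0.23, and 3 (U157, U345 and U472; 8.57%) were called lower. Of 44 other leaf-high probes tested 61.4% were below 0, 0 were called lower and the median was -0.14. The difference between these classes was not tested, as they were formed after the values were seen. At 48 h, where the values chose the members, the medians were -0.66 for flower-high and -0.94 for leaf-high members.

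Between unstressed shoots at 24 h and unstressed roots at 48 h, 21 members could be tested, 3 v 3 arrays with different hours. The median log2 difference was 0.00 over members and -0.75 over all 245 probes, so levels are read relative to that shift. Of the members 3 were called higher in shoots (14.3%, against 9.8% of all probes) and 3 lower (14.3%, against 53.1%). U126 had levels of 13.97, 14.19 and 13.58 in shoots against 12.34 and 11.29 on arrays 2 and 3 of roots, a log2 difference of 1.98 ± 0.35 (SE; limma, adjusted p = 8.5e-08). Its SE came from a single variance that limma pooled over all probes, and is not the spread of U126 itself. U031 (1.27) and U473 (1.23) were the others higher in shoots, and U219 (-0.88), U408 (-0.72) and U076 (-0.71) were lower. These 3 lay close to the median of all probes, and the no-dye fit did not call them. The other 41 members lacked values on 2 arrays of a tissue and are left out. These control channels also enter the salt ratios given above, so both sets of values share arrays.

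The authors' deposited table of log2 ratios also lists the members, with a centring that is not stated. In salt shoots at 24 h the authors' deposited table held values below 0 for 58 of 59 members, against 65.7% of all its probes. For drought leaves the authors' deposited table listed 49 of 60 below 0, against 60.2%. The authors' deposited table had 23 of 57 members below 0 in drought flowers, against 50.4%, 28 of 61 in cold leaves, against 63.3%, and 34 of 55 in cold flowers, against 66.7%. The authors' deposited table also had 20 of 30 below 0 in salt roots at 48 h, against 60.1%, and 20 of 25 in salt roots at 24 h, against 65.5%. A column's median has, by definition, as many entries below it as above it. Relative to the median of each column of the authors' deposited table, 47 of 59 members were below in salt shoots at 24 h and 44 of 60 in drought leaves. The counts below were 23 of 57 in drought flowers, 20 of 61 in cold leaves and 20 of 55 in cold flowers. In salt roots they were 14 of 25 at 24 h and 16 of 30 at 48 h.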

How the data were processed

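Spot intensity and local background were quantified by the authors in ImaGene 5.5 under automatic segmentation, as recorded per the file headers. Ratios, signals and levels used only deposited intensity values of spots with flag 0, unless stated. Counts above background and of saturated spots took all spots, flagged or not. The deposited table holds log2 ratios, means over replicates per the labels, made by the authors with background subtraction and LOWESS per the series design text. It served for sign counts only.

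Ratios were treated over control. For the tests, background was corrected by normexp (offset 50) and arrays were normalised by global loess. A probe's value was the mean of the unflagged ones among its 6 spots, at times only 1. limma 3.58.1 in R 4.3.3 fitted 18 arrays with a coefficient per condition and a dye term. The dye term was called for 2 of 61 members and 18 of 499 probes. The 3 arrays of salt shoots at 48 h were left out because they chose the members. Benjamini-Hochberg adjustment ran over all probes with values on at least 2 arrays, with a threshold of 0.05, and p-values measure the spread between arrays, except that for shoots against roots limma used 1 variance for all probes. Control-channel levels were compared after loess and Aquantile scaling, with dye and, for leaves and flowers, experiment in the model. Array numbers come from file names. Control levels of same-numbered arrays deviated together between tissues (correlation 0.166 to 0.782 over probes, with the dye swap shared), and a block by array number, chosen after seeing the data, moved no tissue count over 1.5 times. A probe was above background where at least 50% of its spots exceeded local background by 2 SDs. Members and lists were chosen with earlier results of these data known. Named members were the 10 lowest at 48 h, called members (at most 10 per condition, and 5 per direction between tissues), those near the threshold and the extremes per condition.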

Additional observations from a re-analysis of the deposited data

Results flagged for a closer look

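The level of U376 in unstressed flowers was 13.71 (log2) on array 1 of drought flowers, further below the other 5 flower arrays than the spread among them. That array had the dimmest control channel of the flower arrays, with 250 probes above background. Of 19 groups of arrays examined this was the only one set apart in this way, and about 1 in 20 is so by chance.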

How the results depend on the processing

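The number of members moved most with flagged spots kept, to 108, which held 58 of the 62. The members called in salt shoots at 24 h numbered 2 with subtracted background and median centring, 4 with normexp and median centring, 3 with flagged spots kept, 5 with the 48 h shoot arrays in the fit, 3 without a dye term, 0 with quantification day as a block and 0 by the methods' t-test after adjustment (10 at an unadjusted p under 0.05). Leaving out array 1, 2 or 3 gave 0 to 10, with 0 without array 1 and without array 3. The day block takes up array 1, the only array of its day. In salt roots at 48 h flagged spots kept gave 27 (15 higher, 12 lower), the methods' t-test 0 after adjustment (2 at an unadjusted p under 0.05), and leaving out an array in turn 2 to 9 calls, with 2 without array 2 and 3 without array 3. In cold leaves the count was 0 with at least 3 spots, 2 with the 48 h shoot arrays, 2 without a dye term, 0 by the methods' t-test (3 at an unadjusted p under 0.05) and 0 to 1 on leaving out an array. For drought minus cold leaves it was 2 with the 48 h shoot arrays and 0 to 2 on leaving out an array. Unstressed shoots minus roots gave 36 (all higher) with flagged spots kept, 3 without a dye term and 1 to 6 on leaving out an array. Keeping flagged spots also raised the number of members tested in this comparison and in salt roots at 48 h. Shares over all probes are not given beside the counts of this paragraph, so the counts cannot be read as particular to the members. The leaf against flower counts stayed between 30 and 47 in all settings run. U379 in salt shoots at 24 h turned to -0.0207 with flagged spots kept. Causes were not tested. Of all 508 values of named members under these settings, 112 passed the threshold as reported and missed it under the setting, and 2 did the opposite, with direction kept. The 508 include results that were not called as reported. Among the 10 members called in salt shoots at 24 h, U076 passed in 8 of 12 settings and U219 in 7 of 12. Each of the others passed in only 2 (U345) to 4 (U334) settings. With array number as a replicate block (chosen after seeing the data), 8 members were called in salt shoots at 24 h, 6 in salt roots at 48 h (3 higher, 3 lower), 2 in cold leaves (U437 and U472), 1 in cold flowers (U472), 47 between leaves and flowers and 6 between shoots and roots. U308 in drought leaves turned to -0.0173 with this block. Ratios of same-numbered arrays correlated over probes at 0.6, 0.63 and -0.0979 between drought leaves and drought flowers, on arrays 1 to 3. Between cold leaves and cold flowers they correlated at 0.357, 0.24 and 0.297, with the dye swap shared. Drought leaves with cold leaves gave -0.155 to 0.115, and salt shoots at 24 h with salt roots at 48 h gave 0.0966 to 0.27. The main contrasts of leaves with flowers left this pairing within a stress out of the model.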
